A study of Sus scrofa with 12 samples.

Results

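Whether the response to GDNF differs between SM and LG oocytes was measured as an interaction, the difference between GDNF and control in LG oocytes minus the same difference in SM oocytes. It used all 12 arrays of the series, 3 in each of the groups SM control, SM GDNF, LG control and LG GDNF, and was computed for 11913 genes. All groups were oocytes of Sus scrofa from crossbred prepubertal gilts, matured in vitro for 44 h in TCM199 with LH, FSH, EGF and 10% porcine follicular fluid and then denuded. The GDNF groups also received GDNF, at a dose the labels do not give, and the labels spell out neither SM and LG nor the word Clean, which 2 LG GDNF titles (pools 1 and 2) carry. Each array set 1 pool against a shared reference made from oocytes of every group. The design text gives 9 independently collected replicates per condition in pools of 3, whereas the labels give 2 per pool and 16 for the reference. The cells a pool holds are therefore not settled, and a difference between pools cannot tell fewer oocytes with a transcript from less transcript per oocyte.

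GDNF, glial cell line-derived neurotrophic factor, binds the co-receptor GFRA1, and the pair activates the receptor tyrosine kinase RET. Phosphorylated RET recruits adaptors such as SHC1 and GRB2, which pass the signal to RAS and MAP kinases and to PI3K and AKT. In the pig ovary GDNF is known as a factor that supports the in vitro maturation of oocytes. A fully grown oocyte transcribes little, and its transcript pool is shaped largely by storage, polyadenylation and decay of maternal mRNA.

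The deposited values are log ratios of a pool and the reference, treated here as log2. The pool carried Cy5 on the 4 arrays of slide 1 and Cy3 on the 8 arrays of slides 2 and 3, and each slide held 1 array of every group. Whether the ratios of slide 1 run the same way as those of the other slides is not given in the sources used here. Interactions are therefore given as sizes, with no direction of expression, and a gene is said to lie on the side of GRB2 or on the opposite side in the ratios as deposited. The reading with slide 1 turned has the same standing. Ratios against an oocyte reference give no level, so oocyte markers could not be used to check the cell type. LG control 2 and LG GDNF 3 both lay on slide 3. Over all features they correlated less with the arrays of their pool number than the other arrays of pools 2 and 3 did. Values without this pair are given for many results. The LG difference then rests on slides 1 and 2. LG control keeps pools 1 and 3, and LG GDNF pools 1 and 2. What arrays of 1 pool number share is then not balanced in LG, and its part in these values was not tested.

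No gene passed the test for a class difference in the GDNF response. Of 11913 genes, 0 had an adjusted p under 0.05 in limma, where the smallest was 0.635. Those at an unadjusted p under 0.05 numbered 499, 4.19% of the genes tested, against 595.6 if p-values were uniform. With slide 1 turned they numbered 523 (4.39%), and 575 (4.83%) without LG control 2 and LG GDNF 3, again with 0 after adjustment. An ordinary linear model without moderation left 0 genes after adjustment and 518 before it. The median size of the interaction was 0.20 on the log2 scale and its median standard error 0.28. The 95% interval of a typical gene reached 0.62 to either side of its estimate at the unadjusted level.

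**Figure D1:**
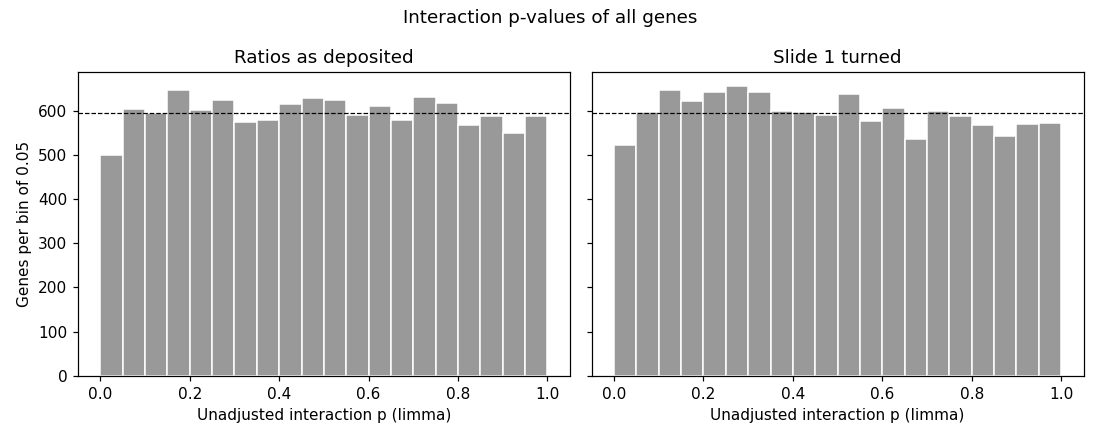
Number of genes in each bin of the unadjusted interaction p-value (bins of 0.05) for the ratios as deposited and with slide 1 turned. The dashed line marks 595.6 genes per bin, the number for uniform p-values, and the lowest bin holds 499 and 523 genes.

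The interactions of the 3 slides, each from 4 arrays of its own, did not resemble each other across genes. Slides 2 and 3, which share the dye orientation, correlated at r = -0.12 over 11913 genes, which share the reference, the array design and the slide's processing. Slide 1 correlated with slide 2 at -0.04 and with slide 3 at -0.01. Slide 2 held SM control 2, SM GDNF 3, LG control 3 and LG GDNF 2, and slide 3 the other arrays of pools 2 and 3. What arrays of 1 pool number share therefore enters the interactions of slides 2 and 3 on opposite sides. This also holds for the slide values of genes and lists below, and its part was not tested. The interaction lay on the same side on all 3 slides for 2450 genes (20.6%). The LG difference on slide 3, between LG GDNF 3 and LG control 2, was the widest of the 6 differences within slides: its SD over genes was 0.689, against 0.458 and 0.466 for LG on slides 1 and 2 and 0.433 to 0.450 for SM. It exceeded a size of 2 for 257 genes, against 8 to 37 genes in the other 5.

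Among the 20 genes with the smallest p, the GDNF differences of SM and LG lay on opposite sides in 20 of 20. Choice by the interaction favours this: it held for 93.0% of the 499 genes at an unadjusted p under 0.05 and for 47.4% of all genes. The LG difference was the larger in 14 of the 20, against 70.3% of the 499 and 58.0% of all genes. Once slide 1 was turned, it was the larger in 13 of these 20, in 69.6% of the 523 genes at an unadjusted p under 0.05 in that reading and in 55.3% of all genes. Each of the 20 genes was measured by 1 feature, while 3326 of all 11913 genes had more than 1.

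GRB2, the adaptor that couples RET and other receptor kinases to RAS, had the smallest p. Its deposited ratios in pools 1, 2 and 3 were -0.22, -0.12 and -0.25 in SM control, -0.12, 0.36 and 0.41 in SM GDNF, 0.65, 0.73 and 1.25 in LG control, and -0.32, -0.30 and -0.53 in LG GDNF. As deposited, the LG control pools stood above all 9 others, and GDNF and control did not overlap in either class. Choice by p favours such gaps, and 82 genes (0.688% of all) had them in both classes. With slide 1 turned LG control 1 of GRB2, at -0.65, was the lowest of the 12 arrays. The size of its interaction was 1.67, standard error 0.24 (limma, adjusted p = 0.635), made up of 1.26 in LG and 0.41 in SM on opposite sides. On slides 1, 2 and 3 it was 1.07, 2.08 and 1.87. Without LG control 2 and LG GDNF 3 it was 1.67, and with slide 1 turned 0.96 (limma, unadjusted p = 0.14).

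ENC1, a kelch-repeat protein that binds actin, had the next smallest p as deposited. Its ratios were -0.13, 0.05 and 0.34 in SM control, 0.43, 0.35 and 0.46 in SM GDNF, 1.04, 1.08 and 0.73 in LG control, and -0.19, 0.09 and -0.17 in LG GDNF. As deposited, the LG control pools stood above the other 9, and with slide 1 turned LG control 1, at -1.04, was the lowest of all. PID1, an adaptor with a phosphotyrosine interaction domain, had -0.59, -0.82 and -0.53 in SM control, -0.21, -0.13 and -0.34 in SM GDNF, 0.28, 0.05 and 0.12 in LG control, and -0.43, -0.83 and -0.10 in LG GDNF. As deposited, its GDNF and control pools did not overlap in either class, as in 0.688% of all genes. UPF3B, an exon junction factor of nonsense-mediated decay, had -0.20, -0.28 and -0.35 in SM control, 0.23, -0.26 and 0.02 in SM GDNF, 0.83, 0.93 and 0.40 in LG control, and -0.01, -0.20 and 0.05 in LG GDNF. As deposited, the LG control pools of UPF3B stood above all others while the SM groups overlapped, and with slide 1 turned LG control 1, at -0.83, was the lowest. The interaction sizes of ENC1, PID1 and UPF3B were 1.37, 1.02 and 1.05, with standard errors of 0.24, 0.23 and 0.24 (limma, adjusted p = 0.991 each). After turning slide 1, they were 0.17, 0.30 and 0.20.

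UBE2W, an enzyme that attaches ubiquitin to protein N-termini, had ratios of 0.67, 1.00 and 0.55 in SM control, 0.29, 0.62 and 0.77 in SM GDNF, -0.31, -0.14 and 0.06 in LG control, and 0.71, 1.01 and 0.30 in LG GDNF. RNF138, a ubiquitin ligase, had 0.28, 0.99 and 0.16 in SM control, 0.36, 0.36 and 0.11 in SM GDNF, -0.51, -0.78 and -0.35 in LG control, and 0.30, 0.78 and 0.44 in LG GDNF. As deposited, the LG control pools stood below the other 9 in both genes, and the SM groups overlapped. With slide 1 turned LG control 1 was at 0.31 in UBE2W and 0.51 in RNF138, above LG control 2 and LG control 3. The sizes were 0.99 for UBE2W and 1.25 for RNF138, with standard errors of 0.23 and 0.29, on the side opposite to GRB2, and with slide 1 turned 0.05 and 0.77. UBL3, a membrane-anchored ubiquitin-like protein, lay on the side of GRB2 with -0.10, 0.08 and 0.01 in SM control, 0.56 to 1.02 in SM GDNF, 0.04, 0.58 and 0.78 in LG control, and -0.04, 0.28 and -0.93 in LG GDNF. Its size was 1.55 (standard error 0.37), 1.15 without LG control 2 and LG GDNF 3, and 0.75 with slide 1 turned. The adjusted p of these 3 genes was 0.991 in limma.

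In SRL, FRRS1 and PNMA2, as in UBL3, the SM difference was the larger. SRL, sarcalumenin, a calcium-binding protein, had ratios of 0.70, 0.28 and 0.36 in SM control, -0.33, -0.48 and -0.22 in SM GDNF, -0.04, -0.10 and -0.23 in LG control, and 0.25, 0.20 and -0.07 in LG GDNF. FRRS1, a ferric-chelate reductase, had -0.71, -0.90 and -0.58 in SM control, 0.27, -0.11 and -0.38 in SM GDNF, -0.02, -0.11 and 0.12 in LG control, and -0.31, -0.60 and -0.33 in LG GDNF. PNMA2, of the paraneoplastic antigen family, had 0.43, 0.29 and 0.45 in SM control, 0.07, -0.14 and -0.47 in SM GDNF, -0.14, -0.24 and -0.22 in LG control, and 0.27, 0.09 and -0.04 in LG GDNF. As deposited, GDNF and control did not overlap in SM in any of these 3 genes, against 7.14% of all genes. Nor did they overlap in LG in FRRS1 and PNMA2, against 10.6%, while the LG groups of SRL overlapped. Choice by p favours such gaps. The SM control pools of PNMA2 were the highest of all as deposited, and with slide 1 turned SM control 1 was at -0.43. The SM differences had sizes of 0.79 in SRL, 0.66 in FRRS1 and 0.57 in PNMA2, and the LG differences 0.25, 0.41 and 0.31. The interactions were 1.04, 1.07 and 0.88, with standard errors of 0.21, 0.24 and 0.20 (limma, adjusted p = 0.991 each), and 0.16, 0.22 and 0.37 with slide 1 turned. In each of the 10 genes with the smallest p, GDNF and control overlapped in both classes once slide 1 was turned.

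**Figure D2:**
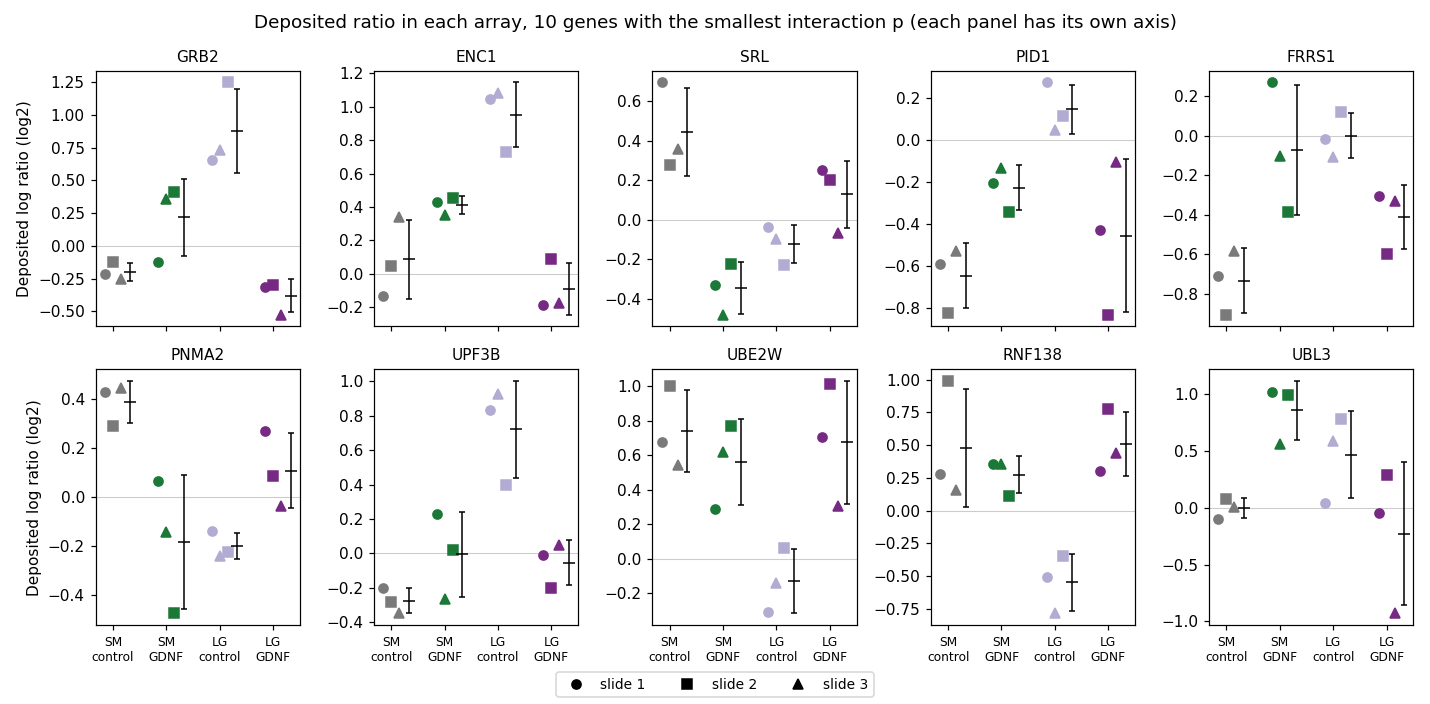
Deposited log ratio (log2, y axis, a scale of its own in each panel) of the 10 genes with the smallest interaction p in each of the 12 arrays by group (x axis). Symbols give the slide and the bars the mean and SD of 3 arrays, and in GRB2 the LG control arrays lie between 0.65 and 1.25, above all others.

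The next 10 genes had sizes from 0.75 to 1.56 with standard errors from 0.18 to 0.40, and 5 of them lay on the side of GRB2. These were CCDC82 at 0.89, the anion exchanger SLC4A9 at 1.32, the GTPase-activating protein TAGAP at 0.75, the WD-repeat protein WDR5B at 1.21 and the dopamine receptor DRD4 at 1.00. On the opposite side were the centrosomal protein CCDC61 at 1.20, TRIML2 at 1.25, the solute carrier SLC35E1 at 0.89, the transcription factor TCF15 at 1.56 and the tetraspanin CD82 at 0.81. SLC35E1 varied least between slides, at 0.88, 0.91 and 0.90. Each of the 10 kept its side on 3 of 3 slides, which the choice by p favours, and none passed (limma, adjusted p = 0.991). In the turned reading the sizes of all 20 genes lay between 0.04 and 1.34, and 2 of the 20, CCDC61 and TCF15, had an unadjusted p under 0.05. Without LG control 2 and LG GDNF 3 the 20 sizes lay between 0.79 and 1.67.

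**Figure D3:**
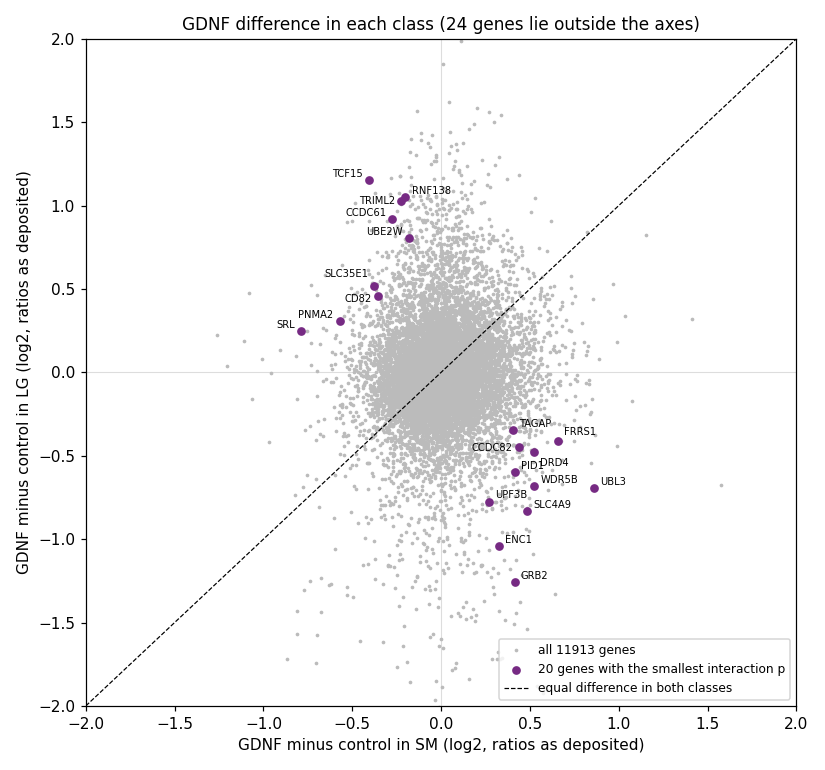
GDNF minus control in SM (x axis) and in LG (y axis), in log2 units of the ratios as deposited, for 11913 genes (24 lie outside the axes). The dashed line marks equal differences, and the 20 genes with the smallest interaction p, in purple, lie away from it with SM and LG differences of opposite sign.

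Few genes kept a small p under both orientations of slide 1. There were 21 with an unadjusted p under 0.05 in both (0.176% of all genes). That is 4.21% of the 499 genes as deposited, against 4.39% of all genes with such a p once slide 1 was turned. It is 4.02% of the 523 with slide 1 turned, against 4.19% of all genes with such a p as deposited. The overlap was thus near the share over all genes. For a gene to be among the 21 its slide 1 value has to be small, since turning changes only the sign of that slide. In the 10 with the smallest p under both, slide 1 had sizes from 0.0005 to 0.34, slide 2 from 0.83 to 2.13 and slide 3 from 1.09 to 2.46. These genes therefore rest on slides 2 and 3.

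UHRF2, a ubiquitin ligase that binds modified DNA, had ratios of -0.01, 0.86 and 0.19 in SM control, 0.18, -0.11 and -0.54 in SM GDNF, -0.36, -0.87 and -0.22 in LG control, and -0.01, 0.48 and 0.79 in LG GDNF. As deposited the LG groups did not overlap, against 10.6% of all genes, and the SM groups did. With slide 1 turned it was the other way round. Its interaction was 1.41 (standard error 0.44) as deposited and 1.30 with slide 1 turned. TCF15 had -0.16, 0.62 and 0.35 in SM control, -0.10, -0.03 and -0.27 in SM GDNF, -0.72, -0.98 and -0.32 in LG control, and -0.35, 0.93 and 0.85 in LG GDNF, and as deposited its groups overlapped in both classes. EZR, ezrin, which links actin to the cell membrane in microvilli, had 0.66, 0.20 and 0.15 in SM control, 1.03, 0.25 and 0.41 in SM GDNF, 0.36, 1.89 and 1.5 in LG control, and 0.51, 0.23 and -0.47 in LG GDNF. EZR was highest in LG control 2 and LG control 3, and its groups overlapped in both classes in either reading. LG GDNF 3 was the lowest array as deposited, and SM GDNF 1, at -1.03, with slide 1 turned. The size of EZR was 1.38 as deposited and 0.78 without LG control 2 and LG GDNF 3. It was 0.89 without LG control 2 alone.

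The other 7 genes of the 10 had sizes from 0.72 to 1.20. On the side of GRB2 were KCTD18 at 0.89, the galactosyltransferase B4GALT4 at 0.78 and FAM83B at 0.76. On the opposite side were CCDC61 at 1.20, the vesicle fusion protein NAPB at 0.83, the integrin subunit ITGAM at 1.08 and the tRNA-modifying enzyme TRMT12 at 0.72. B4GALT4 was the average of 2 features with sizes of 0.23 and 1.32. Without LG control 2 and LG GDNF 3 ITGAM was 0.56 and KCTD18 0.62, and 4 of the 10 genes had an unadjusted p under 0.05. Leaving out LG control 2 alone put ITGAM at 0.68, and leaving out LG GDNF 3 alone put FAM83B at 0.50. None passed in either reading (limma, smallest adjusted p = 0.959 with slide 1 turned).

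**Figure D4:**
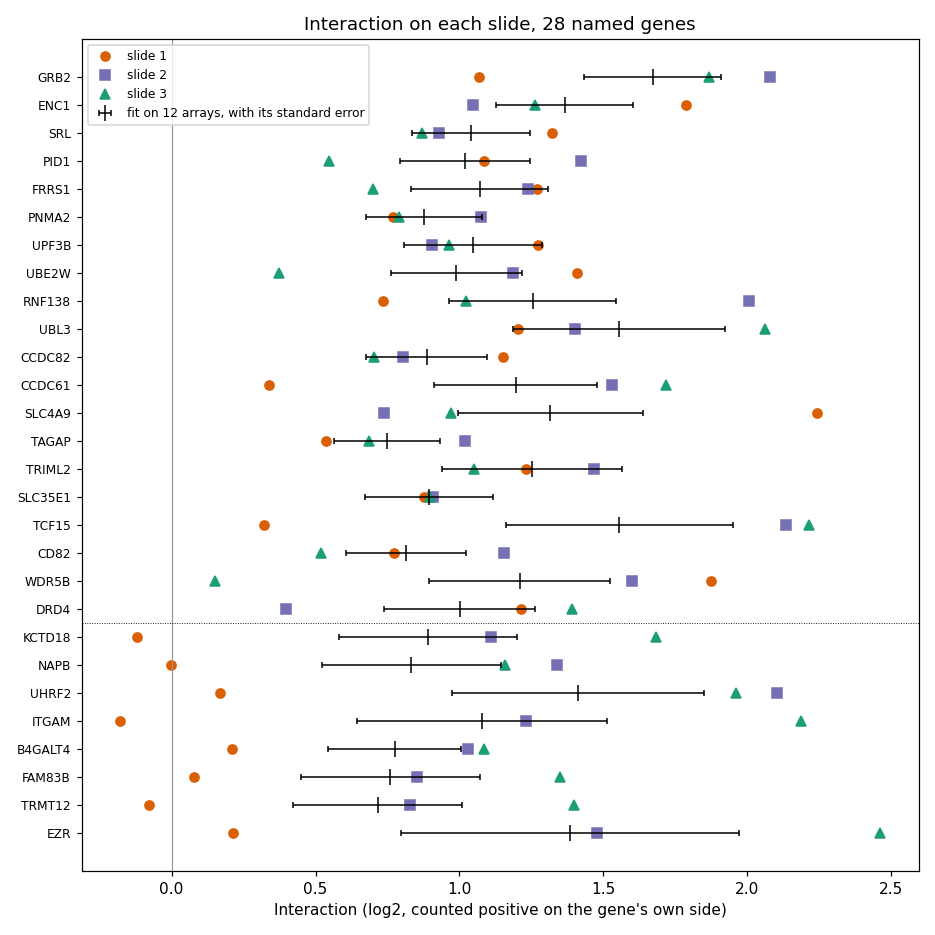
Interaction of 28 genes (log2, x axis, positive on the gene's own side) on each slide (symbols) and in the fit on 12 arrays (bar with its standard error). Above the dotted line are the 20 genes with the smallest p, below it those chosen by p under both orientations, whose slide 1 values lie near 0.

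The GDNF ligand family and its receptors were measured by 10 of 12 list members. As deposited, 0 of the 10 had an unadjusted p under 0.05, against 4.19% of all genes. With slide 1 turned 2 of the 10 did, against 4.39%. GFRA1, the co-receptor of GDNF, had ratios of -0.03, -0.34 and -0.33 in SM control, -0.02, 0.15 and -0.12 in SM GDNF, -0.31, 0.16 and 0.19 in LG control, and -0.20, -0.41 and -0.04 in LG GDNF. GDNF and control overlapped in both classes. The size for GFRA1 was 0.47 (standard error 0.25), with a 95% interval from 0.10 on the opposite side to 1.04 on the side of GRB2. RET had -0.40, -0.18 and -0.18 in SM control, 0.02, -0.26 and 0.05 in SM GDNF, -0.29, 0.14 and 0.01 in LG control, and 0.39, -0.07 and -0.46 in LG GDNF. For RET the size was 0.19 (0.31), with an interval from 0.51 on the opposite side to 0.89 on the side of GRB2, and its groups overlapped in both classes as deposited. It was 0.01 without LG control 2, on the opposite side, and 0.46 without LG GDNF 1. NCAM1, an alternative GDNF receptor, spread most: LG control ran from -0.30 to 2.26 and LG GDNF from -2.15 to 0.87, and its size of 1.45 (0.72) was 0.78 without LG GDNF 3. Without LG control 2 and LG GDNF 3 NCAM1 was 1.13 (0.33). It was then the 1 of 10 members with an unadjusted p under 0.05, against 4.83% of all genes.

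The remaining members had small interactions with wide intervals. GDNF itself had 0.05 (standard error 0.28), NRTN (neurturin) 0.03 (0.27), PSPN (persephin) 0.11 (0.26), and SDC3, a heparan sulphate proteoglycan that binds GDNF, 0.05 (0.33). Among co-receptors of other ligands GFRA3 had 0.26 (0.28), GFRA4 0.12 (0.31) and GFRAL, the receptor of GDF15, 0.08 (0.35). With slide 1 turned GFRA1 (0.53) and GFRA3 (0.61) had an unadjusted p under 0.05, and neither passed (limma, adjusted p = 0.959 each). The interval of GDNF itself ran from 0.59 on the opposite side to 0.69 on the side of GRB2, which does not show that the classes respond alike.

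Of the RET adaptors, RAS and MAP kinase genes 31 of 41 were measured, and 3 of the 31 (9.68%) had an unadjusted p under 0.05, GRB2 on its side and 2 on the other, against 4.19% of all genes. SHC1, the adaptor that recruits GRB2 to receptors, had 0.81 (standard error 0.35) and MAP2K1, the kinase that activates ERK, 0.54 (0.22), both on the side opposite to GRB2. The 5 features of MAP2K1 had sizes from 0.25 to 0.96 on the same side. SHC1 was 1.15 on slide 1 and 1.53 on slide 2 but lay on the other side on slide 3, and with slide 1 turned it was 0.04. Without LG control 2 and LG GDNF 3 SHC1 was 1.19 (limma, unadjusted p = 0.0026, adjusted p = 0.901). The list median had a size of 0.06, opposite to GRB2, and that of all genes 0.02. Once slide 1 was turned, 5 of the 31 (16.1%) had such a p, against 4.39% of all genes, and the median was 0.09 on the side of GRB2. These 5 were SHC3, PTPN11, CRKL, NCK1 and SRC, named after their values were seen, and 0 of them had such a p as deposited. Of PI3K, AKT and mTOR genes 0 of 21 measured had such a p, with a median size of 0.07. The 3 with the smallest p were PIK3R2 at 0.50 (0.24), GSK3B at 1.09 (0.52) and the cap-binding factor EIF4E at 0.98 (0.47). GSK3B was 0.55 and EIF4E 0.49 without LG control 2.

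Feedback and immediate early genes respond to MAP kinase in many cells. Of these, 0 of 19 measured had an unadjusted p under 0.05, against 4.19% of all genes. The median size was 0.02. FOS had 1.39 (standard error 0.77) and JUN 1.21 (0.73), both on the side of GRB2, and IER2 0.31 (0.20) on the other. FOS lay at 0.67 without LG GDNF 3 and JUN at 0.37 without LG control 2. Without both of these arrays FOS was 0.98 and JUN 0.44. FOS was then the 1 of 19 members with an unadjusted p under 0.05 (5.26%), against 4.83% of all genes.

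Oocyte and maternal-effect genes had 1 of 27 measured members at such a p (3.70%), against 4.19% of all genes, and their median size was 0.05. That member was BTG4, which targets maternal mRNA for deadenylation, with 1.17 (standard error 0.50) on the side opposite to GRB2. Its slide values were 2.45 on slide 2 and 1.10 on slide 3 against 0.05 on the other side on slide 1, and it was 0.63 without SM GDNF 3. UHRF1, which guides maintenance of DNA methylation, had 0.60 (0.30), and the zona pellucida protein ZP3 0.79 (0.43), both on the side of GRB2. Among polyadenylation and decay genes, which also hold BTG4, 2 of 41 (4.88%) had such a p, the other being the decapping factor DCP1A at 0.44 (0.18) on the side of GRB2, which was 0.0066 on the other side with slide 1 turned. FIP1L1, of the polyadenylation complex, had 0.62 (0.30) and 0.37 without SM GDNF 3, and the list median was 0.04. With slide 1 turned 2 of 27 oocyte and maternal-effect genes (7.41%) had such a p, against 4.39% of all genes. Without LG control 2 and LG GDNF 3 the count was 3 of 27 (11.1%), against 4.83%. For polyadenylation and decay genes these 2 counts were 1 and 0 of 41.

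Meiosis and M-phase genes had 0 of 41 measured members at an unadjusted p under 0.05 as deposited, against 4.19% of all genes. The count was 1 of 41 (2.44%) with slide 1 turned, against 4.39%. Without LG control 2 and LG GDNF 3 it was 3 of 41 (7.32%), against 4.83%. The median size of the list was 0.18 as deposited, opposite to GRB2, with 28 of 41 on that side, against 5704 of 11913 genes. The median was 0.34 on that side on slide 2, and 0.04 on the side of GRB2 on slides 1 and 3. MAD2L1, of the spindle checkpoint, had 1.88 (standard error 0.88), of which slide 2 carried 4.70, and 0.94 without SM GDNF 3. The kinesin KIF11 had 0.94 (0.53) on the side of GRB2, and CKS1B, a subunit of cyclin-dependent kinase, 0.85 (0.49) opposite to it. CKS1B was 0.34 without SM GDNF 3, and KIF11 was 0.61 without LG control 2 and 0.15 on the opposite side with slide 1 turned.

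Markers of other cells were followed because denuding can leave cumulus cells on the oocyte. Of cumulus and granulosa markers 2 of 26 (7.69%) had an unadjusted p under 0.05, against 4.19% of all genes. These were the nuclear receptor NR5A2 at 1.30 (standard error 0.38) on the side of GRB2 and KITLG, the KIT ligand, at 0.76 (0.34) opposite to it. Once slide 1 was turned, 0 of 26 had such a p in limma, against 4.39% of all genes, and NR5A2 alone did without LG control 2 and LG GDNF 3. The 2 features of KITLG lay on different sides, at 1.64 and 0.11, and the gene was 0.45 without SM GDNF 3. GREM1, a BMP antagonist, had 0.33 (0.23) and 0.18 without SM control 3. The median size of the list was 0.09, and the median deposited ratio of its genes was -0.11 on LG GDNF 3 and between 0.00 and 0.21 on the other 11 arrays. Theca, stroma and blood markers had 0 of 20 at such a p and a median size of 0.03. INSL3, a theca hormone, had 0.70 (0.34), the matrix protein DCN 1.07 (0.54) and the myeloid receptor CD14 0.46 (0.27), which were 0.43 without LG GDNF 1, 0.52 without LG control 2 and 0.28 without LG GDNF 3. The part of these cells in the interactions of single genes was not tested.

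For genes of cytosolic ribosomal proteins, the size of the median interaction was 0.21. On the side of GRB2 were 40 of 52 members, against 6209 of 11913 genes. After turning slide 1, the median was 0.54, with 44 of 52 on that side, against 6167 of all genes. On slides 2 and 3 the median was 0.48 and 0.51 on that side, and on slide 1 it was 0.57 on the other. Without LG control 2 and LG GDNF 3 it was 0.02, opposite to GRB2, and the side also changed when SM control 2, SM GDNF 2 or LG GDNF 3 was left out alone. At an unadjusted p under 0.05 were 2 of 52 members (3.85%), against 4.19% of all genes. These were RPS27L at 0.94 (standard error 0.38) and RPS28 at 0.74 (0.32), both opposite to the list's median. RPS28 was 0.45 without SM GDNF 3. RPL23A had 1.53 (0.72) and 4.01 on slide 2, and 0.91 without SM control 2.

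Mitochondrial ribosomal proteins had 7 of 55 members at such a p, 12.7% against 4.19% of all genes. The 3 with the smallest p were MRPS24 at 0.73 (standard error 0.22) and MRPL43 at 1.18 (0.36), opposite to GRB2, and MRPS12 at 0.64 (0.24) on its side. Of the 7, 3 lay on the side of GRB2 and 4 on the other, against 1.62% and 2.57% of all genes, and the list median was 0.09. After turning slide 1, 5 members had such a p, against 4.39% of all genes, and on slides 2 and 3 alone 6 did, against 3.44%. The 5 were MRPL17, MRPL22, MRPL24, MRPL52 and MRPS31, named after their values were seen, and 0 of them had such a p as deposited. Such a p was found in 4 of 55 (7.27%) without LG control 2 and LG GDNF 3, against 4.83% of all genes, and the list median was 0.0007. The 2 features of MRPS24 had 1.34 and 0.12.

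Oxidative phosphorylation genes had 2 of 50 members at such a p (4.0%), against 4.19% of all genes. These were CYCS, cytochrome c, at 1.43 (standard error 0.47) and NDUFB11, a complex I subunit, at 0.77 (0.25), both on the side of GRB2 as deposited. In the turned reading CYCS was 0.30 on the opposite side and NDUFB11 0.06 on that of GRB2. NDUFS3, of the same complex, had 0.71 (0.36) opposite to GRB2 and 0.38 without SM GDNF 3. The list median was 0.07 in the fit on 12 arrays. On slide 3 it was 0.78 on the side of GRB2 and on slide 1 0.23 on the other. Without LG control 2 and LG GDNF 3 it was 0.10 on the side opposite to GRB2.

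In the remaining lists the share at such a p ran from 2.86% to 9.09% with slide 1 turned, against 4.39% of all genes. The highest was in ubiquitin-conjugating enzymes, 2 of 22. Without LG control 2 and LG GDNF 3 the share ran from 2.86% to 9.38%, against 4.83%, highest in lipid and sterol genes (3 of 32). As deposited, as in the counts below, the share ran from 2.86% to 6.25%, against 4.19% of all genes. Proteasome genes had 1 of 35 (2.86%), PSMC1 at 0.57 (standard error 0.23), beside PSMD8 at 1.03 (0.49) and PSMA6 at 0.70 (0.36), which were 0.59 and 0.31 without LG control 2. Lipid and sterol genes had 2 of 32 (6.25%), ACACB, which makes malonyl-CoA at mitochondria, at 0.86 (0.27) and PPARG, a regulator of lipid storage, at 0.77 (0.25), while PLIN2, which coats lipid droplets, had 0.59 (0.26). ACACB and PPARG lay on the side of GRB2, and both features of PPARG agreed in side, at 0.80 and 0.73. In the turned reading PPARG had 0.08 on the opposite side, and PLIN2 was 0.35 without LG control 2. Ubiquitin-conjugating enzymes had 1 of 22 (4.55%), UBE2W, beside UBE2Q1 at 2.30 (1.16) and UBE2V1 at 0.66 (0.48). UBE2Q1 was 1.07 and UBE2V1 0.21 without LG control 2. Nonsense-mediated decay genes had 1 of 17 (5.88%), UPF3B, beside RBM8A at 0.58 (0.30), which was 0.34 without LG control 2, and RUVBL1 at 0.65 (0.34), which was 0.30 without SM GDNF 3.

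**Figure D5:**
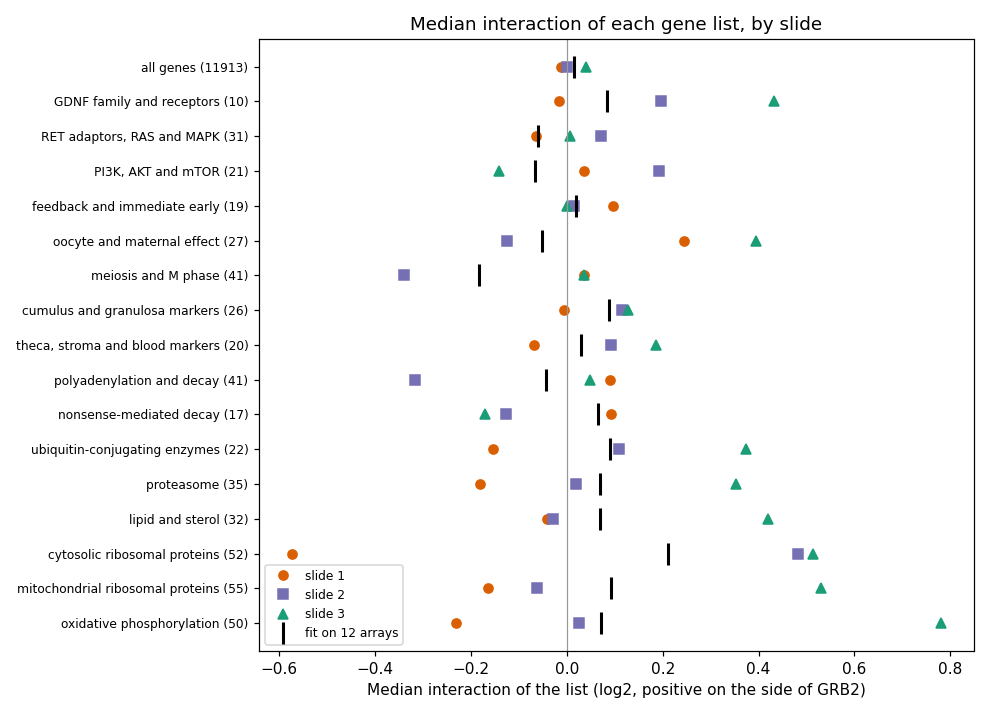
Median interaction of each gene list (log2, x axis, positive on the side of GRB2) on each slide (symbols) and in the fit on 12 arrays (black bar), with the number of measured genes in parentheses. The median of all genes lies near 0 on every slide, while that of cytosolic ribosomal proteins is 0.57 on the opposite side on slide 1 and 0.48 and 0.51 on the side of GRB2 on slides 2 and 3.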

How the data were processed

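Log2 ratios, 1 per feature for 45220 features on 12 two-colour arrays, were used as the authors deposited them. The labels give the dyes and the common reference. On the log base, the numerator and any normalization the sources used here are silent. The array medians lay between -0.011 and 0.022, the median absolute ratio was 0.267 on every array, and no value was missing. No spot intensities entered, and dim or saturated spots were kept. The platform annotation named 18121 features with 1 symbol, 27099 with none and 0 with several. Symbols were updated through RefSeq accessions (124 features changed) and unique synonyms (241), and features were averaged to 11913 genes, 882 of them LOC placeholders.

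Limma 3.58.1 (R 4.3.3) fitted 4 groups and the slide, with 6 residual degrees of freedom and Benjamini-Hochberg adjustment over all genes, two-sided. The script was tested on simulated data. The number of arrays limits the precision, and p-values rest on the spread between these arrays. The members and lists were chosen with earlier results of these data known. Named genes are the 20 with the smallest interaction p, the 10 with the smallest larger p of both orientations (LOC placeholders left out), all measured GDNF family members and the 3 of smallest p in each other list. Lists are given by counts and medians without a set test. Alternatives covered orientation, blocks, weights, normalization, feature averaging, moderation and single arrays. Leaving out LG control 2 with LG GDNF 3, and the slide with the pool number as blocks, were chosen after seeing the data.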

Additional observations from a re-analysis of the deposited data

How the results depend on the processing

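Limma called 0 genes at an adjusted p under 0.05 in each of the 22 alternatives and with every feature tested separately. The count at an unadjusted p under 0.05 was 499 as deposited, 891 with array weights, 325 to 788 when single arrays were left out (325 without LG GDNF 2, 788 without SM GDNF 2), and 1868 of 45220 features (4.13%) when features were tested separately, which enlarges the number tested. It was within 1.5 times of 499 in the other alternatives run: 410 on slides 2 and 3, 523 with slide 1 turned, 396 with no slide block, 575 without LG control 2 and LG GDNF 3, 511 after quantile normalization. The 28 genes chosen by p kept their side in 21 of the 22 alternatives. Their choice on these same arrays favours this, and some alternatives, such as no moderation, leave the estimate unchanged. With slide 1 turned SLC4A9 (0.1777) and WDR5B (0.0412) changed side, and the cause is the turned sign of slide 1. GRB2 had the smallest p in 17 of the 22, among them 9 of the 12 that left out 1 array, but ranked 1638 with slide 1 turned. The count of 17 is favoured by the choice of GRB2 on these same arrays. When single arrays were left out the median of cytosolic ribosomal proteins ran from 0.57 on the side of GRB2 to 0.16 on the other, and that of meiosis genes from 0.15 to 0.21 on 1 side. The median changed side for at least 1 left-out array in 11 of the 16 lists, 10 of them with a median size under 0.1. Of the 51 other named genes, 36 moved by over 1.5 times or changed side when 1 array was left out, and 7 of these changed side.

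With the pool number as a replicate block in place of the slide, 549 genes had an unadjusted p under 0.05 and 0 passed. With both blocks 636 did. Deviations from the group means correlated above 0.1 in 9 of the 18 pairs of arrays with the same pool number (from -0.502 to 0.575). Their median r was 0.11, and 0.20 in 12 pairs without LG control 2 and LG GDNF 3. It was -0.09 in 8 pairs of the same slide and different pool numbers. In 28 pairs that differed in pool number, slide and group it was -0.10. The slide was kept as the block of the main fit. Signal over background was not used here, so its limit on dim features is not known.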

Other observations

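Over all 45220 features, which share the reference and the array design, SM control 2, SM GDNF 2 and LG GDNF 2 correlated with each other at r from 0.756 to 0.844 although they lie on slides 2 and 3. LG control 2, which carries the same pool number, correlated with these 3 arrays at 0.15 to 0.206. SM control 3, SM GDNF 3 and LG control 3 correlated with each other at 0.601 to 0.689, and LG GDNF 3 with them at 0.198 to 0.314. LG control 2 and LG GDNF 3 correlated with each other at 0.433. Both were on slide 3. As deposited, arrays of slide 1 correlated with those of slides 2 and 3 at r from -0.066 to 0.603. Only LG control 1 with SM control 2 and with LG GDNF 2 gave a negative r. Turning slide 1 changes the sign of each of these r. Whether they come from the pools or from the dyes was not tested. The SD of the ratios was 0.871 on LG control 2 against 0.454 to 0.547 on the other 11 arrays, and 489 features exceeded a ratio of 4 on LG control 2 against at most 9 elsewhere.

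Of the 27099 features without a gene symbol 1087 (4.01%) had an unadjusted p under 0.05, and limma called 0 at an adjusted p under 0.05.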
